A study of Homo sapiens with 6 samples.

Results

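The insulin-like growth factor (IGF) axis was followed here through 10 genes: the ligand gene IGF2, the receptor genes IGF1R, INSR and IGF2R, and the binding protein genes IGFBP2, IGFBP3, IGFBP4, IGFBP5, IGFBP6 and IGFBP7. They were found by gene symbol among the 22496 symbols listed in at least 1 library, and all 10 were listed. The members were chosen by family with the FPKM of these same 6 libraries already in view, so the difference between genotypes in the members is a description. No p-value of a member is printed, and saying that a member passed or missed the threshold only places it in the fit over all genes. All RNA came from LoVo, an established human colon adenocarcinoma cell line. The groups were 3 libraries labelled SHARPIN knockout and 3 labelled non-target, the genotype control, and no treatment or time point is named for either. SHARPIN belongs to the complex that builds linear ubiquitin chains, and the series asks which transcripts change when it is knocked out. The sources used here do not say whether the knockout is 1 clone or a pool of edited cells.

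IGF1 and IGF2 are secreted growth factors that bind the IGF1 receptor, a tyrosine kinase that signals through insulin receptor substrates to the PI3K, AKT and mTORC1 cascade. The insulin receptor is its closest relative and binds IGF2 through 1 of its splice forms, while IGF2R takes IGF2 into lysosomes and carries no kinase. Outside the cell, IGFs are held by the IGF-binding proteins, which lengthen their half-life and limit or deliver them to the receptors. IGFBP6 prefers IGF2 to IGF1, and IGFBP7 is a relative with low affinity for IGFs. The colon epithelium is a classic setting for this axis, since excess IGF2 is a known feature of a subset of colorectal cancers.

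The binding proteins owe their fold to cysteines paired in the amino-terminal domain. A stretch of 8 codons from that domain is shown for each gene because it sets IGFBP6, the member with the highest FPKM in knockout cells, beside its relatives. It was read from the canonical GENCODE transcripts on GRCh37, 5′ to 3′ in coding orientation, with the cysteine codons in capitals.
IGFBP1: ggcTGCggcTGTTGCccgatgTGC
IGFBP2: ggcTGCggcTGCTGCtcggtgTGC
IGFBP3: ggcTGCggcTGCTGCctgacgTGC
IGFBP4: ggcTGCggcTGTTGCgccactTGC
IGFBP5: ggcTGCggcTGCTGCatgaccTGC
IGFBP6: ggcTGCgcggaagctgagggcTGT
IGFBP7: gcgTGCggcTGCTGCcctatgTGC
IGFBP2, IGFBP3, IGFBP4, IGFBP5, IGFBP7 and the non-member IGFBP1 each had 4 cysteine codons in the stretch, and IGFBP6 had 2. Over the whole coding sequence IGFBP6 had 16 cysteine codons in 240 codons, the fewest and the shortest of the 7. IGFBP4 had the most cysteine codons, 21 in 258, and IGFBP2 the longest coding sequence, 325 codons with 19. The IGFBP6 stretch was placed by its distance from a downstream run of residues that it shares with IGFBP4, using the distance in IGFBP4. The other stretches were found by their cysteine pattern.

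The 10 genes lie on 9 chromosomes, and coordinates are those of GRCh37, the build the authors named as hg19. IGFBP2 (chromosome 2, 217497551 to 217529159, plus strand) and IGFBP5 (217536828 to 217560272, minus strand) end 7.7 kb apart and point toward each other. IGFBP3 (chromosome 7, 45951844 to 45961473, minus strand) stands in the same way 18.6 kb from IGFBP1. IGFBP6 lies on chromosome 12 at 53491220 to 53496129 on the plus strand, 144.5 kb from the keratin gene KRT18. IGFBP4 lies on chromosome 17 at 38599702 to 38613977 on the plus strand, and IGFBP7 on chromosome 4 at 57896939 to 57976551 on the minus strand. IGF2 lies on chromosome 11 at 2150342 to 2179621 on the minus strand. IGF1R lies on chromosome 15 at 99191768 to 99507759 and IGF2R on chromosome 6 at 160390114 to 160534539, both on the plus strand. INSR lies on chromosome 19 at 7112266 to 7294425 on the minus strand.

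The 250 bases upstream of the start of the canonical transcript are shown for IGFBP6 and IGFBP2, the members with the largest differences in each direction between genotypes. In both genes that start lies downstream of the gene start given above, which is set by the longest annotated extent, so the windows overlap the gene's span. They come from the RefSeq promoter table of GRCh38.p14 and were placed on GRCh37 by exact match, with the motifs found in capitals.
IGFBP6, chr12:53491201-53491450, plus strand: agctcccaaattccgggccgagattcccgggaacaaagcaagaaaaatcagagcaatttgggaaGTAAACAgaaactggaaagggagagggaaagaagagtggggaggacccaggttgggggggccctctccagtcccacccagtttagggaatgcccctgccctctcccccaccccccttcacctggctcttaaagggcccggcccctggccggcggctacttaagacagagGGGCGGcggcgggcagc
IGFBP2, chr2:217497893-217498142, plus strand: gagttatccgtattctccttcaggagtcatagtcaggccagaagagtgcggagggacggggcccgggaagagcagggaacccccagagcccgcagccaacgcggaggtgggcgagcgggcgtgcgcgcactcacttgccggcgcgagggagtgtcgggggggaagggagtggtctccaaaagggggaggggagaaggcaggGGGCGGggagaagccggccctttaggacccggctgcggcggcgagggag
Both strands were searched for the TATA box as TATAAA, the GC box as GGGCGG, the E-box as CACGTG, the forkhead motif that FOXO factors bind as GTAAACA and the AP-1 motif as TGANTCA, and none of these motifs overlapped in the windows shown. The IGFBP6 window held 1 forkhead motif and 1 GC box, and the IGFBP2 window held 1 GC box. Of all 35116 promoters in the table, 2.98% held the forkhead motif, 42.6% the GC box, 10.7% the TATA box, 6.34% the E-box and 6.57% the AP-1 motif. Among the 8 members matched in the table, IGFBP6 was the member with the forkhead motif, IGFBP4 had 1 TATA box, IGF2R had 3 E-boxes and 6 GC boxes, and the IGFBP5 window had none of the motifs. IGFBP7 and IGF2 had no entry. A match describes the letters of the window and not the binding of a factor.

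The deposited value was FPKM, fragments scaled by transcript length and by the mapped total of the library, so levels can be set side by side between genes per length and are relative within a library. Libraries listed 19068 to 20158 symbols, their summed FPKM was 416852 to 522919, and their depth was estimated at 20900000 to 22500000 fragments. Correlations between libraries were 0.946 to 0.997 within a group and 0.912 to 0.94 between groups. Non-target replicates 2 and 3 lay close together in several members, as in IGF2 at 2.483 FPKM in both and IGFBP6 at 8.61 and 8.67 FPKM. In IGFBP2 they stood further apart, at 4.08 and 3.29 FPKM. Whether these libraries are independent samples is not stated, and each SE and p-value below counts both. Markers of colon epithelium were present, with EPCAM at 132 to 198 FPKM and KRT8 at 1866 FPKM or more in all 6 libraries. VIL1, CDX1, CDH17, GPA33 and CEACAM5 were lower and KRT20 was higher in knockout, so the genotypes also differed in markers of colon epithelium. The blood cell marker PTPRC was at most 0.036 FPKM and CD3E was unlisted, while LYZ, which intestinal epithelium also makes, stood at 1.34 to 3.29 FPKM in knockout and 45.6 to 66.3 FPKM in non-target. A log2 fold change below is knockout over non-target on the log2(FPKM + 1) scale, with its SE from limma, fitted to the 13092 genes that reached 1 FPKM in 3 or more libraries, and understates changes of low genes. The threshold is a Benjamini-Hochberg adjusted p of 0.05 over those genes. In this bulk RNA, fewer cells expressing a gene and less transcript per cell cannot be told apart.

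SHARPIN itself had 7.55, 11.9 and 18.0 FPKM in knockout replicates 1, 2 and 3, against 11.9, 13.9 and 12.9 FPKM in non-target replicates 1, 2 and 3. The groups overlapped, with a log2 fold change of -0.12 and an SE of 0.26 (limma adjusted p = 0.827). Its sign turned without knockout replicate 1, to 0.17. Transcript level therefore does not check the labels, and each direction given here goes by the label of the library.

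Across all genes tested, 12.2% passed the threshold, 6.26% higher and 5.93% lower in knockout. Of the 10 members 9 were tested, and 3 passed: IGFBP6 and IGFBP7 were higher and IGFBP2 was lower. IGFBP5 did not reach the filter. With a replicate block, which pairs libraries of the same number, 25.3% of all genes and 7 of the 9 members passed, with IGFBP4 added on the higher side and IGFBP3, IGF1R and IGF2R on the lower. The SE of the 9 members was nearly alike with the block, 0.171 to 0.198, against 0.179 to 0.29 without it. Blocked p-values given below thus rest mostly on a spread shared across genes, and not on each gene's own replicates. In 7 of the 10 members the 3 knockout values did not overlap the 3 non-target values, 3 higher and 4 lower. That held for 32.1% of all genes tested, 16.5% higher and 15.7% lower. The median log2 fold change of the 9 tested members was -0.24, beside 0.02 for all genes tested. Since the members were chosen with these values known, nothing is read from these shares.

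**Figure D1:**
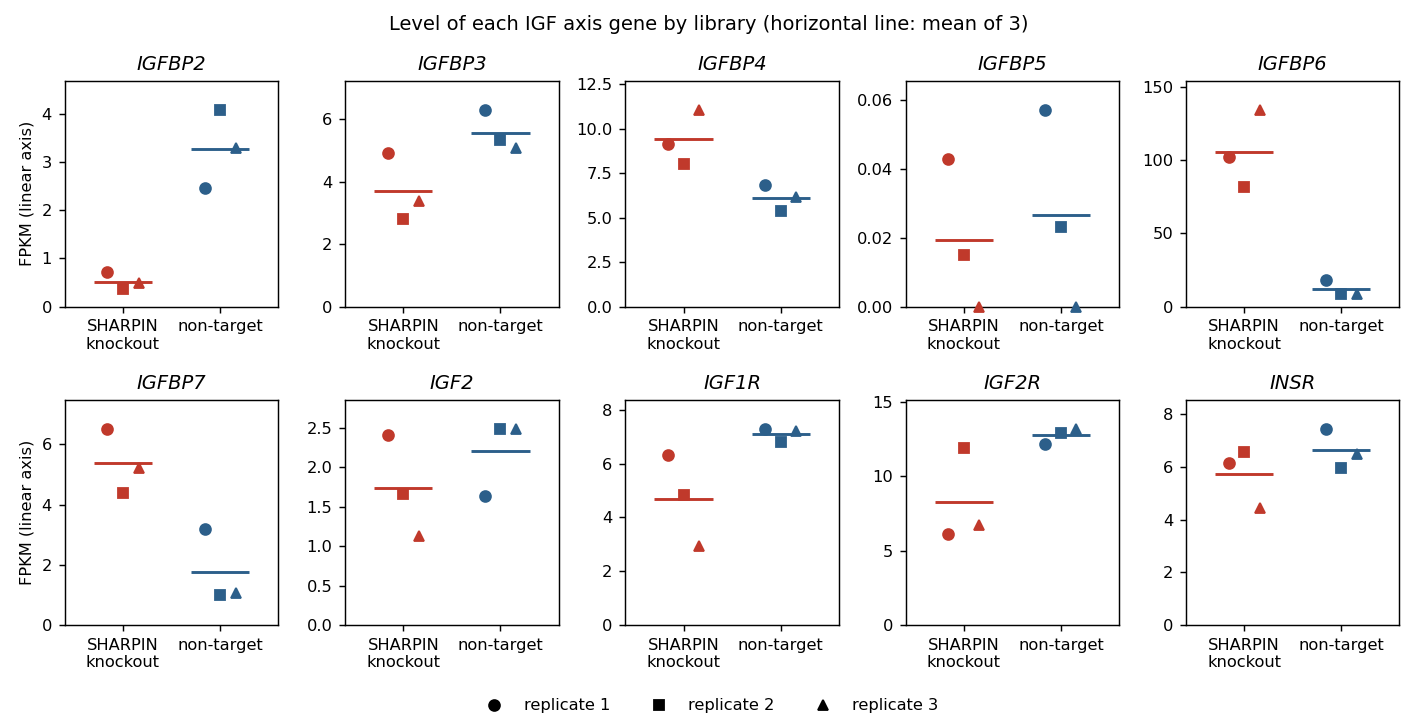
FPKM of the 10 members in each library, 1 panel per gene with its own linear axis from 0, knockout left of non-target, with a line at the group mean and a symbol for each replicate. IGFBP6 lies between 81.35 and 134 FPKM in knockout and between 8.61 and 18.0 FPKM in non-target, while IGFBP2 lies at 0.361 to 0.713 FPKM in knockout and 2.47 to 4.08 FPKM in non-target.

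The ligand gene IGF2 was expressed at a low level in both genotypes. It had 2.40, 1.66 and 1.13 FPKM in knockout replicates 1, 2 and 3, against 1.64, 2.48 and 2.48 FPKM in non-target replicates 1, 2 and 3. Knockout replicate 1 lay among the non-target libraries, so the groups overlapped, and the log2 fold change was -0.24 ± 0.21 (SE, n = 3 each). The IGF2 values may hold fragments of the readthrough gene INS-IGF2, which shares its exons. Listed INS-IGF2 FPKM was 0.879 to 0.884 of the IGF2 FPKM in all 6 libraries, so how fragments were divided between the pair is uncertain. IGF1, the other ligand and not a member, stayed below the filter, with 2.08, 0.656 and 0.445 FPKM in knockout and 0.227, 0.041 and 0.068 FPKM in non-target. Its groups did not overlap, and the 2 replicate 1 libraries were the highest of each group. The insulin gene INS was not listed in any library.

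Among genes that act on the IGF2 transcript, IGF2BP1, an RNA-binding protein named for binding IGF2 mRNA, fell. It had 0.323, 0.255 and 0.197 FPKM in knockout, against 4.90, 8.95 and 9.02 FPKM in non-target, lower by a log2 fold change of -2.74 with an SE of 0.23 (limma adjusted p = 9.39e-05). It was 1 of 7 tested genes in that list, in which 0 rose, 1 fell and 6 did not pass. Its paralogs did not pass: the log2 fold change was 0.42 for IGF2BP2 and -0.03 for IGF2BP3. H19, the imprinted neighbour of IGF2, was listed at 0.857 FPKM or less in every library.

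The signalling receptor genes were lower on average in knockout, IGF1R by more than INSR. IGF1R had 6.30, 4.82 and 2.92 FPKM in knockout, against 7.28, 6.79 and 7.22 FPKM in non-target. The groups did not overlap, and knockout replicate 1 lay closest to the non-target libraries. The log2 fold change was -0.56 ± 0.23 (SE, n = 3 each), short of the threshold, and it passed with the replicate block and without knockout replicate 1, where it was -0.76. INSR had 6.14, 6.58 and 4.43 FPKM in knockout, against 7.45, 5.98 and 6.50 FPKM in non-target. These groups overlapped, with a log2 fold change of -0.20 ± 0.19 (SE, n = 3 each). The ratio of IGF1R to INSR, both per length, was 1.03, 0.732 and 0.659 in knockout replicates 1, 2 and 3 and 0.978, 1.14 and 1.11 in non-target replicates 1, 2 and 3. Knockout replicates 2 and 3 lay below every non-target library in this ratio, and knockout replicate 1 among them.

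IGF2R, the mannose 6-phosphate receptor that clears IGF2, had 6.11, 11.9 and 6.76 FPKM in knockout, against 12.2, 12.9 and 13.2 FPKM in non-target. The groups did not overlap, although knockout replicate 2 stood beside the non-target libraries. The log2 fold change was -0.62 ± 0.23 (SE, n = 3 each). It was short of the threshold, passed with the replicate block, and was -0.89 and past the threshold without knockout replicate 2. The sum of IGF1R and INSR was 12.4, 11.4 and 7.36 FPKM in knockout and 14.7, 12.8 and 13.7 FPKM in non-target, so the lowest sum was that of knockout replicate 3, the library with the highest total FPKM.

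IGFBP6 had the largest difference among the members. It had 102, 81.35 and 134 FPKM in knockout replicates 1, 2 and 3, against 18.0, 8.61 and 8.67 FPKM in non-target replicates 1, 2 and 3. Every knockout library lay far above every non-target library, and the ratio of group means was 8.99. The means were 106 ± 26.5 FPKM in knockout and 11.8 ± 5.41 FPKM in non-target (SD, n = 3 each), and the log2 fold change was 3.11 ± 0.29 (SE). Non-target replicate 1 was the highest of its group, and without both replicate 1 libraries the log2 fold change was 3.45.

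IGFBP7, also called angiomodulin, was higher in knockout as well. It had 6.51, 4.37 and 5.22 FPKM in knockout, against 3.18, 1.01 and 1.06 FPKM in non-target. The groups did not overlap, and non-target replicate 1 was again the highest of its group. The log2 fold change was 1.28 ± 0.29 (SE, n = 3 each). IGFBP7 left the genes past the threshold without knockout replicate 2, without knockout replicate 3, without non-target replicate 2 and without non-target replicate 3, with log2 fold changes of 1.40, 1.29, 1.10 and 1.12. It was 1.503 and past the threshold without both replicate 1 libraries.

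IGFBP7 is also made by fibroblasts, so their markers stand beside it. The 8 fibroblast markers summed to 0.812, 0.297 and 0.234 FPKM in knockout and to 20.2, 7.97 and 7.78 FPKM in non-target. In knockout replicates 2 and 3 and non-target replicates 2 and 3, COL1A2, DCN and PDGFRA were all at 0, and LUM made up most of the sum in non-target replicates 2 and 3, at 7.52 and 7.45 FPKM. In non-target replicate 1, COL1A1 stood at 6.60 and COL1A2 at 6.12 FPKM. The marker sums were lower in knockout, where IGFBP6 and IGFBP7 were higher, and their part in the values of non-target replicate 1 was not tested.

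IGFBP4, which binds IGFs and is cleaved by the protease PAPPA, was the third binding protein gene with higher values in knockout. It had 9.14, 8.04 and 11.0 FPKM in knockout, against 6.83, 5.38 and 6.15 FPKM in non-target. The groups did not overlap, and the log2 fold change was 0.54 ± 0.18 (SE, n = 3 each), short of the threshold without the replicate block. PAPPA had 2.54, 2.50 and 0.859 FPKM in knockout and 1.07, 0.373 and 0.346 FPKM in non-target (log2 fold change 0.86, limma adjusted p = 0.0756, and 8.35e-06 with the replicate block). Its groups overlapped through knockout replicate 3 and non-target replicate 1.

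IGFBP2 was the member with the largest difference downward. It had 0.713, 0.361 and 0.48 FPKM in knockout, against 2.47, 4.08 and 3.29 FPKM in non-target. All 3 knockout libraries were below 1 FPKM and all 3 non-target libraries above it. The log2 fold change was -1.49 ± 0.19 (SE, n = 3 each). Because IGFBP2 passed the filter on its non-target values alone, it had to be low in knockout to show a difference of this size and could not have entered from the knockout side. The ratio of IGFBP6 to IGFBP2 was 143, 225 and 279 in knockout replicates 1, 2 and 3, against 7.29, 2.11 and 2.63 in non-target replicates 1, 2 and 3. It sets the member with the largest rise over the member with the largest fall, so it had to separate the genotypes. Its size in knockout also rests on IGFBP2 values below 1 FPKM.

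IGFBP3, the main IGF carrier of blood, was lower in knockout without passing the threshold. It had 4.93, 2.82 and 3.39 FPKM in knockout, against 6.29, 5.35 and 5.09 FPKM in non-target. The groups came close, at 4.93 FPKM for knockout replicate 1 and 5.09 FPKM for non-target replicate 3, and did not overlap. The log2 fold change was -0.50 ± 0.21 (SE, n = 3 each), and it passed with the replicate block and without knockout replicate 1, where it was -0.68. IGFBP5, the neighbour of IGFBP2, was at 0.043, 0.015 and 0 FPKM in knockout and 0.057, 0.023 and 0 FPKM in non-target, so no difference could be judged at this depth.

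**Figure D2:**
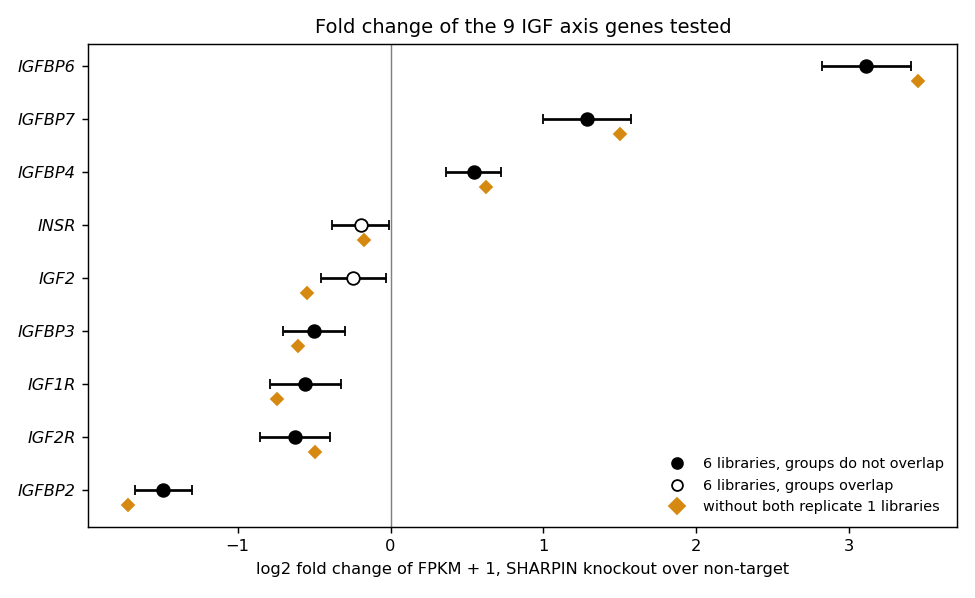
Log2 fold change (knockout over non-target, log2(FPKM + 1) scale) of the 9 tested members, as circles with SE bars, filled where the groups do not overlap, ordered by size, with diamonds for the fit without both replicate 1 libraries. IGFBP6 lies farthest to the right at 3.11 and IGFBP2 farthest to the left at -1.49, and the receptors lie between -0.62 and -0.20.

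The order of the 10 genes by mean FPKM, per length, differed between genotypes. In knockout the order was IGFBP6, IGFBP4, IGF2R, INSR, IGFBP7, IGF1R, IGFBP3, IGF2, IGFBP2 and IGFBP5. IGFBP6 stood apart from IGFBP4, whose highest knockout value was 11.0 FPKM. The values of neighbours in the order from IGFBP4 to IGFBP3 overlapped, and IGF2 lay below IGFBP3 and IGFBP2 below IGF2 with no overlap. In non-target the order was IGF2R, IGFBP6, IGF1R, INSR, IGFBP4, IGFBP3, IGFBP2, IGF2, IGFBP7 and IGFBP5. There IGF2R and IGFBP6 overlapped through non-target replicate 1, IGFBP6 lay above IGF1R, and the neighbours from IGF1R to IGFBP3 overlapped. IGFBP2 lay below IGFBP3, while IGFBP2, IGF2 and IGFBP7 overlapped from one to the next.

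The summed FPKM of IGFBP2 to IGFBP7 was 123.4, 96.95 and 154 in knockout, against 36.8, 24.5 and 24.3 in non-target. IGFBP6 made up 82.7%, 83.9% and 86.9% of this sum in knockout and 48.9%, 35.2% and 35.7% in non-target. Its mean share was 84.5% ± 2.16 in knockout and 39.9% ± 7.77 in non-target (SD, n = 3 each), a difference of 44.6 percentage points. Since IGFBP6 had the largest rise among the members, its share had to be higher in knockout, and the difference is a description. IGFBP2 made up 0.421% ± 0.14 in knockout and 12.3% ± 5.11 in non-target. The share of IGFBP3 was 3.03% in knockout and 20.0% in non-target, and that of IGFBP4 was 7.62% in knockout and 21.9% in non-target, although the FPKM of IGFBP4 was higher in knockout. The share of IGFBP7 was 4.39% ± 0.95 in knockout and 5.72% ± 2.53 in non-target, so its share overlapped while its level did not. With IGFBP1 counted in the sum, the IGFBP6 difference was 50.4 percentage points. These are shares of transcript, and the amounts of secreted protein were not measured.

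**Figure D3:**
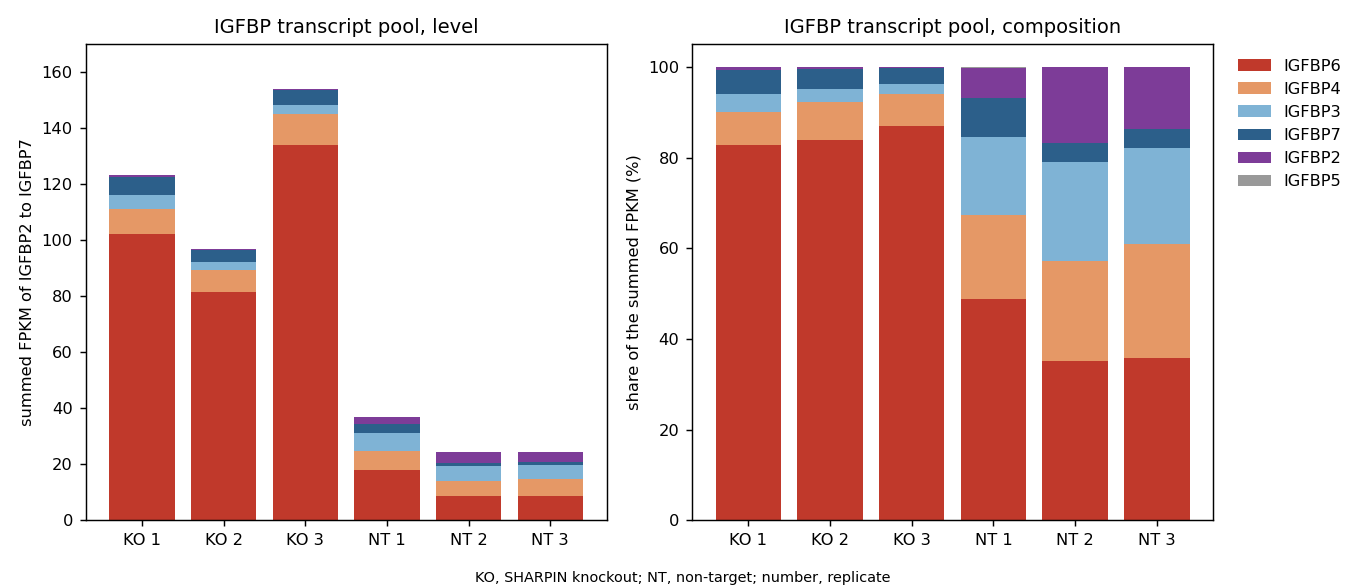
Summed FPKM of the IGFBP2 to IGFBP7 genes in each library (left) and the share of each gene in that sum in percent (right), stacked by gene, knockout libraries left of non-target libraries. The knockout bars reach 96.95 to 154 FPKM with 82.7% to 86.9% IGFBP6, and the non-target bars 24.3 to 36.8 FPKM with 35.2% to 48.9% IGFBP6.

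Genes of the pathway outside the members were taken from 7 lists of 105 genes, 84 of them tested. Of these 5 rose, 6 fell and 73 did not pass, and with the replicate block 12 rose and 14 fell. The share past the threshold was 13.1% of these genes, beside 12.2% of all genes tested, and with the block it was 31%, beside 25.3% of all genes. The lists were also chosen with earlier results of these data known, so nothing is read from these shares. A p-value printed for a gene of the lists only places it in the fit over all genes. Some of these calls rest on genes that entered the filter from 1 genotype alone, as IGFBP2 did: IGFBP1, MMP7, IGF2BP1 and GAB1 through non-target, and PLAT through knockout. The 84 genes had a median log2 fold change of 0.04, and the medians of the 7 lists lay between -0.16 and 0.18. IGFBP1, a binding protein gene regulated by insulin in liver, fell furthest within the IGF family, with 0.085, 0.042 and 0.115 FPKM in knockout, against 6.81, 3.67 and 4.24 FPKM in non-target (log2 fold change -2.41 ± 0.20, SE; limma, adjusted p = 0.000108). It lies next to IGFBP3, which was lower in the same libraries without passing. The other 2 tested genes of that list, KAZALD1 and IGFLR1, did not pass, and IGFLR1 passed with the replicate block (limma adjusted p = 0.0162).

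Proteases known to cleave IGF-binding proteins, and their regulators, differed in both directions: of 7 tested, 1 rose, 2 fell and 4 did not pass. PLAT, the tissue plasminogen activator, rose, with 7.76, 5.18 and 5.90 FPKM in knockout, against 0.665, 0.345 and 0.172 FPKM in non-target (log2 fold change 2.38, limma adjusted p = 0.00011). MMP7, a matrix metalloproteinase of epithelial tumours, fell, with 0.362, 0.083 and 0.123 FPKM in knockout, against 3.75, 3.22 and 2.76 FPKM in non-target (-1.84, adjusted p = 0.000138 by limma). HTRA1, a secreted serine protease, fell by 0.90 on the log2 scale (limma adjusted p = 0.00693), which was up to 0.0579 when non-target replicate 2 or 3 was left out.

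IGF1R and INSR are made as single chains that a proprotein convertase cuts, and LoVo is known for lacking active furin. FURIN transcript was nonetheless present, with 15.9, 16.4 and 16.7 FPKM in knockout and 13.3, 14.8 and 14.3 FPKM in non-target (log2 fold change 0.20, limma adjusted p = 0.454). Of 7 convertase genes tested, 1 rose, PCSK5, with 2.85, 2.19 and 1.59 FPKM in knockout and 1.11, 0.598 and 0.636 FPKM in non-target (log2 fold change 0.84, limma adjusted p = 0.021). That call was lost in TPM and without knockout replicate 2, non-target replicate 2 or non-target replicate 3, with adjusted p up to 0.118 in limma.

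Close to the receptors, 2 of 17 tested adaptor and regulator genes rose and 1 fell. PTPN1, the phosphatase that acts on the insulin receptor, rose, with 32.3, 22.4 and 19.04 FPKM in knockout, against 12.4, 11.0 and 11.0 FPKM in non-target (log2 fold change 1.003, limma adjusted p = 0.0111). SH2B2, an adaptor of the insulin receptor, rose by a log2 fold change of 0.89 (limma adjusted p = 0.00931). Its limma adjusted p was 0.0732 without non-target replicate 2 and 0.0689 without non-target replicate 3. GAB1, a docking protein, fell by 0.62 on the log2 scale (limma adjusted p = 0.0353). That call was lost in 10 of 19 other settings. The limma adjusted p was 0.0772 without knockout replicate 2, 0.101 without knockout replicate 3, 0.0535 in TPM and 0.0717 after quantile normalization. On the genes of the 6-library fit it was 0.0859, 0.0956 and 0.0913 without non-target replicates 1, 2 and 3 in turn. The substrates IRS1 and IRS2 did not pass, with log2 fold changes of 0.47 and -0.13, and IRS1 passed with the replicate block (limma adjusted p = 0.0427).

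Farther down, 0 of 30 tested genes of the PI3K, AKT and mTORC1 list passed in limma, with 5 at an unadjusted p under 0.05. With the replicate block 4 rose and 2 fell, 20% of the list beside 25.3% of all genes tested. With array weights 10 passed, where 5269 of all 13092 genes tested did. The smallest p of the list was that of PHLPP2, an AKT phosphatase, at a log2 fold change of -0.72 (limma adjusted p = 0.0549, and 0.00203 with the replicate block). AKT1 had 56.3, 63.8 and 69.2 FPKM in knockout and 40.0, 47.2 and 46.8 FPKM in non-target (log2 fold change 0.49, limma adjusted p = 0.0878, and 0.0231 with the replicate block). Of 13 tested FOXO factors and their targets, CITED2 rose (log2 fold change 1.24, limma adjusted p = 0.000684) and PDK4 fell (-0.97, adjusted p = 0.0497). The PDK4 call was lost under 13 of 23 other settings, among them without knockout replicate 2 or 3 and without non-target replicate 1 or 2, with limma adjusted p up to 0.179. FOXO1, FOXO3 and FOXO4 did not pass. FOXO6 did not reach the filter, with 2.099, 0.863 and 1.41 FPKM in knockout and 0.368, 0.346 and 0.378 FPKM in non-target, without overlap.

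**Figure D4:**
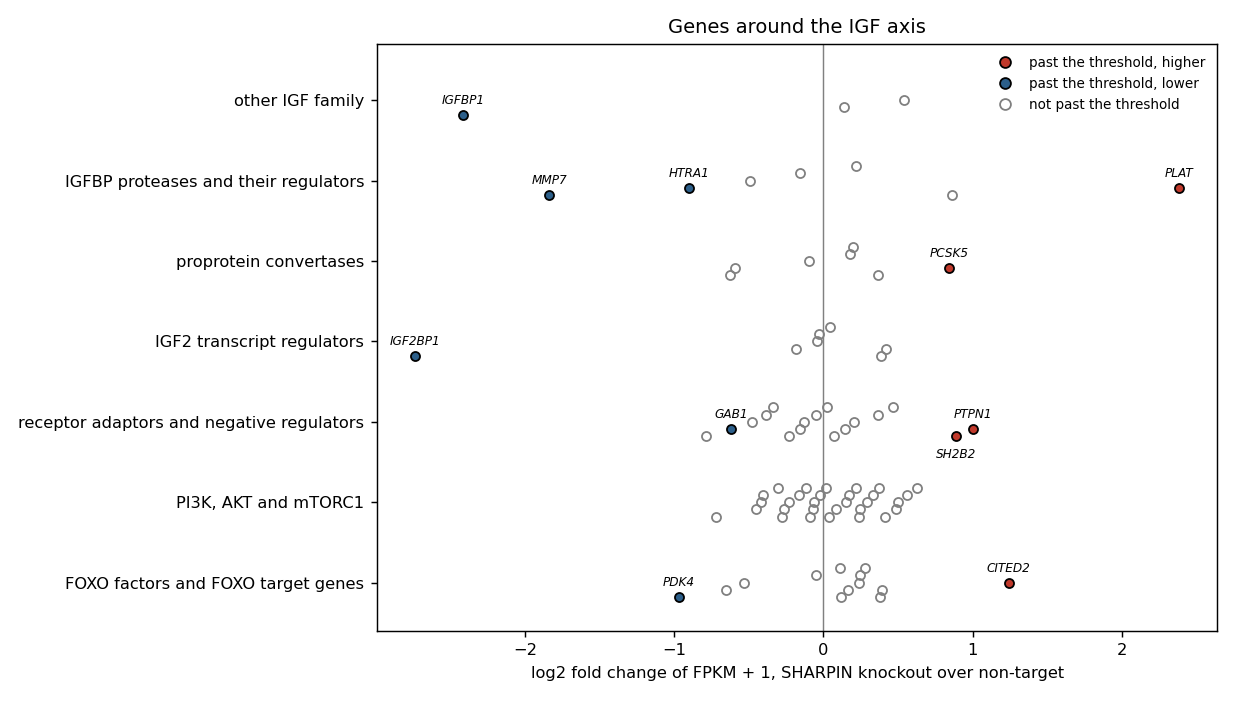
Log2 fold change (knockout over non-target, log2(FPKM + 1) scale) of the tested genes in each of the 7 pathway lists outside the members, 1 point per gene, with genes past the threshold filled and named and the vertical spread within a list for legibility only. The PI3K, AKT and mTORC1 list holds 0 filled points of 30, and IGF2BP1 lies farthest to the left at -2.74 and PLAT farthest to the right at 2.38.

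The 5 genes nearest to each member on each side gave 90 genes other than the members, 46 of them tested, and 11 passed, 5 higher and 6 lower. That is 23.9% of those tested, beside 12.2% of all genes tested. Among those that passed, IGFBP1, ITGB7 and SYNM entered the filter through non-target alone, as IGFBP2 did. Their calls could only be lower in knockout, so the share is a description. No more than 3 of the tested neighbours of any member passed. The 3 that passed among the neighbours of IGFBP3 were all lower, as IGFBP3 was. They were IGFBP1, 18.6 kb away, and 2 more distant genes. TNS3, a tensin, which links integrins to actin, lies 1353.3 kb away (log2 fold change -1.17, limma adjusted p = 0.00838). HUS1, a DNA damage checkpoint protein, lies 2041.4 kb away (-0.78, limma adjusted p = 0.0114). The 2 beside IGFBP4 were higher, as IGFBP4 was: TNS4, 18.1 kb away (log2 fold change 1.16, limma adjusted p = 0.038), and the connexin gene GJD3, 78.7 kb away (1.03, adjusted p = 0.0181). Beside IGFBP6, the retinoic acid receptor gene RARG, 108.2 kb away, rose, with a log2 fold change of 0.77 (limma adjusted p = 0.0228). The integrin gene ITGB7, nearer to IGFBP6 at 89 kb, fell, with a log2 fold change of -1.17 (limma adjusted p = 0.000801). NR2F2, an orphan nuclear receptor gene 2308.3 kb from IGF1R, rose to 57.7, 64.9 and 65.4 FPKM in knockout, against 24.6, 12.7 and 12.7 FPKM in non-target (log2 fold change 1.91, limma adjusted p = 0.000871). Also among the neighbours of IGF1R, SYNM, 130.7 kb away, and MCTP2, 4164.6 kb away, fell. Their log2 fold changes were -1.05 and -0.75 (limma adjusted p = 0.000741 and 0.0212). Beside IGF2, ASCL2 rose, with a log2 fold change of 0.91 (limma adjusted p = 0.04). The calls of TNS4 and RARG were lost when any of several libraries was left out, with adjusted p up to 0.148 and 0.159 in limma, and that of HUS1 without non-target replicate 2 or 3. GJD3 lost its call without each of 5 libraries, all but knockout replicate 1.

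The genes whose log2(FPKM + 1) followed a member most closely over the 6 libraries were taken from 8074 genes with a mean of at least 5 FPKM. For IGFBP6 they were PINK1, RETREG3 and LYPD6B (Pearson's r of 0.9989, 0.9986 and 0.9985), and 323 genes in all reached 0.95. For IGFBP7 they were TRAFD1, GRAMD1A and GGT7 (0.9995, 0.9984 and 0.997), with 243 genes at 0.95 or more, and for IGFBP2 they were RAP1B, ADGRE5 and TSPAN14 (0.9963, 0.9931 and 0.9926), with 128 genes. The 6 points fall into the 2 genotypes, so any gene that separates them scores high, and these values describe likeness over these libraries only. Pearson's r does not measure the size of a change: the log2 fold change was 0.36 for RETREG3 and 3.11 for IGFBP6. RETREG3, TRAFD1, GGT7 and TSPAN14 did not pass the threshold, while PINK1, LYPD6B, GRAMD1A, RAP1B and ADGRE5 did. All 3 genes closest to IGFBP7 had non-target replicate 1 above the other non-target libraries, the pattern of IGFBP7 itself, which follows from their choice by correlation with it.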

How the data were processed

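The members and the pathway lists were chosen with earlier results of these data known. Poly-A RNA of 6 libraries was prepared with dUTP second-strand marking and sequenced on a DNBSEQ instrument, per the labels' protocols. The deposited values are FPKM per gene symbol, which the authors obtained with TopHat2 2.1.1 and STAR 2.7.10b on hg19, per the submitters' processing notes. The use of strand in counting and the treatment of fragments shared by several genes are not given in the sources used here. A symbol missing from a library was set to 0.

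Whole reads could not be recovered from the FPKM, so no count test was run. Depth was estimated from the smallest step in low values, on which 90 to 126 of 782 to 902 values per library lay, against 20 to 22 at other steps, and is a rough estimate. Genes that reached 1 FPKM in 3 or more of the 6 libraries were tested with limma 3.58.1 (R 4.3.3, intensity trend, robust, two-sided) on log2(FPKM + 1), with Benjamini-Hochberg adjustment over 13092 genes. It was tested on simulated data. With 3 libraries against 3, an exact permutation test of a single gene cannot go below 0.1. The labels do not say that replicates are separate cultures, so the spread behind the p-values may be technical.

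Named genes are the 10 members, up to 4 genes per pathway list past the threshold, by size of change (or the smallest p where none passed), up to 2 neighbours per member past the threshold whose higher group averaged 5 FPKM or more, and the 3 genes most alike each member past the threshold. FURIN, IRS1, IRS2, AKT1, PAPPA, IGF1, IGFLR1, KAZALD1, IGF2BP2, IGF2BP3, H19, FOXO6, ITGB7, SYNM, MCTP2, ASCL2 and the closing section's genes were named after their values were seen. The groups share replicate numbers. Deviations from the group means correlated at 0.547, 0.309 and 0.331 between libraries of the same number, each above 0.1, which met the criterion set for pairing. Replicates 2 and 3 were not told apart, since crossed pairs gave 0.32 and 0.321. The fit without the block was kept as the main one, and blocked values are given where they change a call. Other settings were pseudocounts of 0.1 and 0.5, a filter at a mean of 5 FPKM or none, TPM, median-ratio and quantile scaling, limma without trend, array weights, the replicate block and leaving out each library. Leaving out both replicate 1 libraries, averaging non-target replicates 2 and 3, and keeping the genes of the 6-library fit were added after seeing the data.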

Additional observations from a re-analysis of the deposited data

How the results depend on the processing

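None of the 36 genes rerun under the other settings (the 9 tested members and the pathway genes, neighbours and alike genes named by rule) changed sign in any of them. Over all genes, 1597 passed the threshold, and 865 did with a mean of at least 5 FPKM, 5269 with array weights, 3309 with the replicate block and 677 with non-target replicates 2 and 3 averaged. Members past it numbered 3, and numbered 1, 7, 7 and 1 under those settings. Pathway genes outside the members numbered 11, and numbered 3, 38, 26 and 4, and 19 without both replicate 1 libraries on the genes of the 6-library fit. Neighbours numbered 11, and numbered 6, 23, 17 and 2. Leaving out 1 library gave 648 to 1869 genes, 1 to 5 members, 3 to 14 pathway genes and 2 to 12 neighbours, and on the genes of the 6-library fit 911 (without non-target replicate 3) and 958 (without non-target replicate 2) to 1970 genes. Without any 1 non-target library IGFBP2 left the filter, which it passes on its non-target values, and on the genes of the 6-library fit it passed in every setting run. The SHARPIN log2 fold change ran between -0.406 and 0.172 when 1 library was left out, and was 0.118 without both replicate 1 libraries. The IGFBP6 share differed by 42.2 to 49 percentage points when 1 library was left out. Of calls over all genes 51.3% were higher in knockout, against 39.9% with no filter, 44.1% in TPM and 60.8% with array weights. In the fit with the replicate block, which pairs libraries by number, 2 residual degrees of freedom remain per gene. The cause of these shifts was not tested. Differences in genes below the filter, such as IGFBP5 and IGF1, are limited by depth.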

Other observations

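IGFL2, of the IGF-like family of small secreted proteins, was chosen after its values were seen. It had 72.8, 46.7 and 59.6 FPKM in knockout replicates 1, 2 and 3, against 9.03, 11.8 and 9.67 FPKM in non-target replicates 1, 2 and 3 (log2 fold change 2.43 with an SE of 0.20, limma adjusted p = 9.33e-05). All 3 knockout libraries lay above all 3 non-target libraries. IGFL4 had 0.741, 1.44 and 1.40 FPKM in knockout and 1.31, 2.07 and 1.74 FPKM in non-target, and did not pass. IGFL1 and IGFL3 stayed below the filter.

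All 4 tensin genes lay among the neighbours of binding protein genes, an arrangement of the genome noticed after the values were seen. TNS1 lies 1135.2 kb from IGFBP2 and was below the filter. TNS2 lies 33.1 kb from IGFBP6, with 0.716, 1.35 and 1.22 FPKM in knockout and 1.32, 1.56 and 1.92 FPKM in non-target, and did not pass. TNS3 lies 1353.3 kb from IGFBP3, with 5.30, 3.87 and 2.44 FPKM in knockout, against 10.2, 9.30 and 9.51 FPKM in non-target. TNS4 lies 18.1 kb from IGFBP4, with 59.9, 127.4 and 99.8 FPKM in knockout, against 27.2, 50.2 and 47.6 FPKM in non-target. TNS3 and TNS4 thus differed in opposite directions.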
